A study of Bos taurus with 16 samples.

Results

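Cultures of bovine luteal cells that received interferon tau (IFNT) and prostaglandin F2 alpha (PGF2A) together were compared with control cultures that received neither agent. The samples were chosen by their treatment labels and made up 8 of the 16 in the series, 4 in each group. Of the 18705 genes listed, 14122 were tested, those that reached 10 normalized counts in 4 or more of the 16 samples. The cells were primary mixed luteal steroidogenic cells, dissociated from corpora lutea of Bos taurus that had been removed by transvaginal surgery between days 10 and 12 after a natural estrus. After adhering overnight they spent 24 hours in fresh medium that contained luteinizing hormone (LH) at 10 ng/mL in every group. Control cultures (CON) had no further addition, the IFNT group had IFNT at 1 ng/mL, the PGF2A group had PGF2A at 10 ng/mL, and the combined group (IFNT+PGF2A) had both at those doses. Triplicate wells were pooled before total RNA was extracted. Samples carry numbers 1 to 4 within a group, and what a number stands for (an animal or a culture) is not stated. The p-values therefore rest on the spread among these libraries, part of which may be technical.

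The corpus luteum makes progesterone, the hormone that maintains pregnancy. LH acts through its receptor LHCGR and cyclic AMP, cholesterol is taken up or synthesized, STAR moves it into mitochondria, CYP11A1 cleaves its side chain and HSD3B1 completes progesterone. IFNT is a type I interferon made by the trophoblast of the ruminant conceptus before implantation. It binds the receptor pair IFNAR1 and IFNAR2, whose kinases JAK1 and TYK2 activate STAT proteins. With IRF9 these form the complex ISGF3, which switches on antiviral genes. PGF2A from the uterus acts through the Gq-coupled receptor PTGFR on luteal cells and ends the gland's life when no pregnancy is present.

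Reads assigned to genes numbered 23786067 to 25906276 per sample. On the first principal component of all 16 samples, which held 49.8% of the variance, the combined group lay between 33.33 and 54.26 and the controls between -54.61 and -43.94. On the second (17.2%), number 4 stood apart in both groups, at -44.85 in control and -32.08 with both agents against -1.04 to 29.26 for the other 6 libraries. The number 4 library of IFNT alone, used below, lay further out at -70.11, the lowest of all 16. Deviations from the group mean correlated at 0.596 to 0.672 between control and combined samples of the same number over the genes tested, and no pair with unlike numbers (12 pairs) exceeded 0.0111. Deviations from a group mean cancel within the group, so the low values for unlike numbers follow in part from that step. The comparison was defined with the number as a block, and the block was kept in the test. Values without the block, or without the samples of 1 number, stand beside many of the lists and genes they moved. The defining steroidogenic markers STAR, CYP11A1 and HSD3B1 were present in every library, with a summed level of 42950 to 72910 normalized counts in control and 19030 to 33010 with both agents. Fibroblast markers were also abundant (8 genes, summed level 841400 to 1369000 in control and 536100 to 1130000 with both agents). No marker of any other cell type was at 0 in all 8 libraries, but a single read meets that. Only 2 of 7 T and NK cell markers and 2 of 5 B cell markers reached the level for testing.

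Both agents together changed a large part of the transcriptome. The test called 5837 of 14122 genes (41.3%), 2976 higher (21.1%) and 2861 lower (20.3%) than in control. Rises were larger than falls: 928 genes rose (6.57%) and 288 fell (2.04%) by at least 2-fold, 100 rose by at least 16-fold (0.708%) and 28 fell by at least 4-fold (0.198%). The median absolute log2 change was 0.65 among the genes that rose and 0.47 among those that fell. In 3965 genes (28.1%) the 4 control and 4 combined samples did not overlap. Without the block 3127 genes passed, 1754 higher and 1373 lower, and all 3127 were among those called with it. Changes are given on the scale log2(normalized count + 0.5), which understates the change of low genes, with a 95% interval, and the values of single samples follow the order of numbers 1 to 4.

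**Figure D1:**
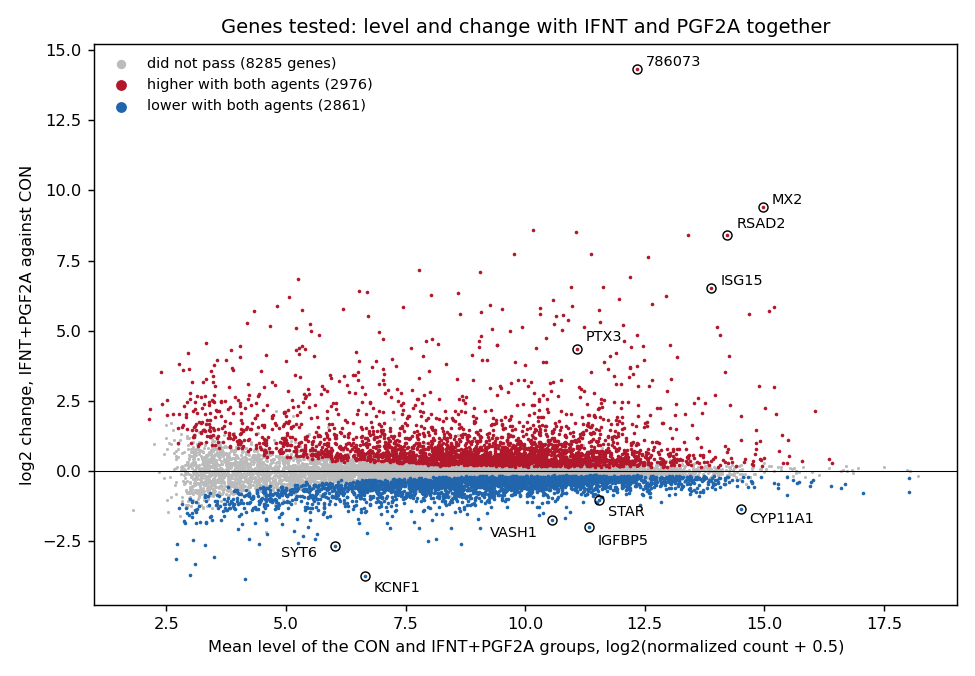
Change with IFNT and PGF2A together against control (vertical axis, log2) by mean level of both groups (horizontal axis, log2 normalized count) for the 14122 genes tested; each point is a gene, red for the 2976 that were higher, blue for the 2861 that were lower and grey for those that did not pass. Fitted rises reach 9.40 in MX2 (8.45 without number 4), and 14.31 in a gene listed as 786073 that had 0 reads in every control library, while the lowest fitted values are -3.86 for CYP2C87 and -3.73 for KCNF1.

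Most genes of the interferon pathway itself rose. Of 7 genes of the receptor and ISGF3, 4 rose and 1 fell. STAT2, a subunit of ISGF3, was 1880, 1900, 1533 and 1660 in control and 7611, 9981, 8804 and 8870 with both agents (log2 change 2.34, 95% interval 2.06 to 2.61, adjusted p = 1e-08). No combined sample reached down to the control range. IRF9 rose from 1043 ± 175 to 4911 ± 444 (SD, n = 4; log2 change 2.24). The receptor chain IFNAR2 rose by 0.26 (adjusted p = 0.0086; the call was lost without the block), the kinase TYK2 fell by 0.38 on the log2 scale, IFNAR1 was -0.40 (interval -0.78 to -0.02, adjusted p = 0.084) and JAK1 0.04 (interval -0.17 to 0.25). All 6 tested interferon regulatory factors rose, by a median of 1.80. They included IRF7, which amplifies interferon responses (737 ± 175 to 9682 ± 1678; 3.73), IRF1 (1.94), IRF3 (1.65) and IRF2, which can repress the same promoters (0.84).

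Genes that restrain interferon signalling rose with it in 6 of 10 cases and fell in none. USP18, a protease that removes ISG15 from proteins and blocks the receptor, was 204, 93.4, 139 and 111 in control and 4206, 4948, 4835 and 4671 with both agents (log2 change 5.15, 95% interval 4.48 to 5.81, adjusted p = 2.8e-08). The groups were far apart, and the 4 combined samples differed by less than the controls did on a log scale. SOCS1, an inhibitor of JAK kinases, rose by 1.79, PIAS1 by 0.96 and the ubiquitin protease USP25 by 1.98. Among 15 other STATs and cytokine receptors 5 rose, led by IL15RA, the presenting chain for interleukin 15 (1.34), and 1 fell (3 and 0 without the block). That is 40.0% of the list, near the 41.3% over all genes. STAT6 rose by 0.59, STAT3 by 0.28 (lost without the block) and the tumour necrosis factor receptor TNFRSF1A by 0.37.

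Antiviral effector genes held many of the largest changes. Of 54 antiviral interferon-stimulated genes tested, 53 rose and none fell, with a median log2 change of 4.10 against -0.01 over all genes tested; the member that did not pass was ZC3HAV1 (0.34, adjusted p = 0.061). MX2, a dynamin-like GTPase that blocks viral replication, was 220.3, 146, 226 and 10.2 in control and 56728, 70702, 78081 and 51163 with both agents (log2 change 9.40, 95% interval 8.19 to 10.60, adjusted p = 2.7e-08). Control number 4 was far below the other 3 controls, and its combined counterpart was the lowest of its group by a much smaller margin; without number 4 the log2 change was 8.45. ISG15, the ubiquitin-like protein that is conjugated to other proteins, was 543, 361, 395 and 146 in control and 23098, 33133, 32653 and 31151 with both agents (log2 change 6.50, 95% interval 5.28 to 7.74, adjusted p = 1e-06). CMPK2, a mitochondrial nucleotide kinase, had one of the smallest adjusted p-values of all genes and rose from 210.3 ± 54.2 to 15536 ± 2867 (6.23). RSAD2, known as viperin, rose by 8.40, the RNA-binding proteins IFIT3 and IFIT2 by 8.41 and 7.61, the guanylate-binding protein GBP4 by 7.74, OAS2, which makes the activator of RNase L, by 7.73, OAS1Z by 6.56 (5.94 without number 4), MX1 by 5.86, IFI44 by 6.55 and the exonuclease ISG20 by 3.94. The list medians within numbers 1 to 4 were 3.72, 4.43, 4.27 and 4.58. The MX, OAS1, IFIT and GBP genes belong to families of similar sequence, and how reads were shared among such copies is not known.

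**Figure D2:**
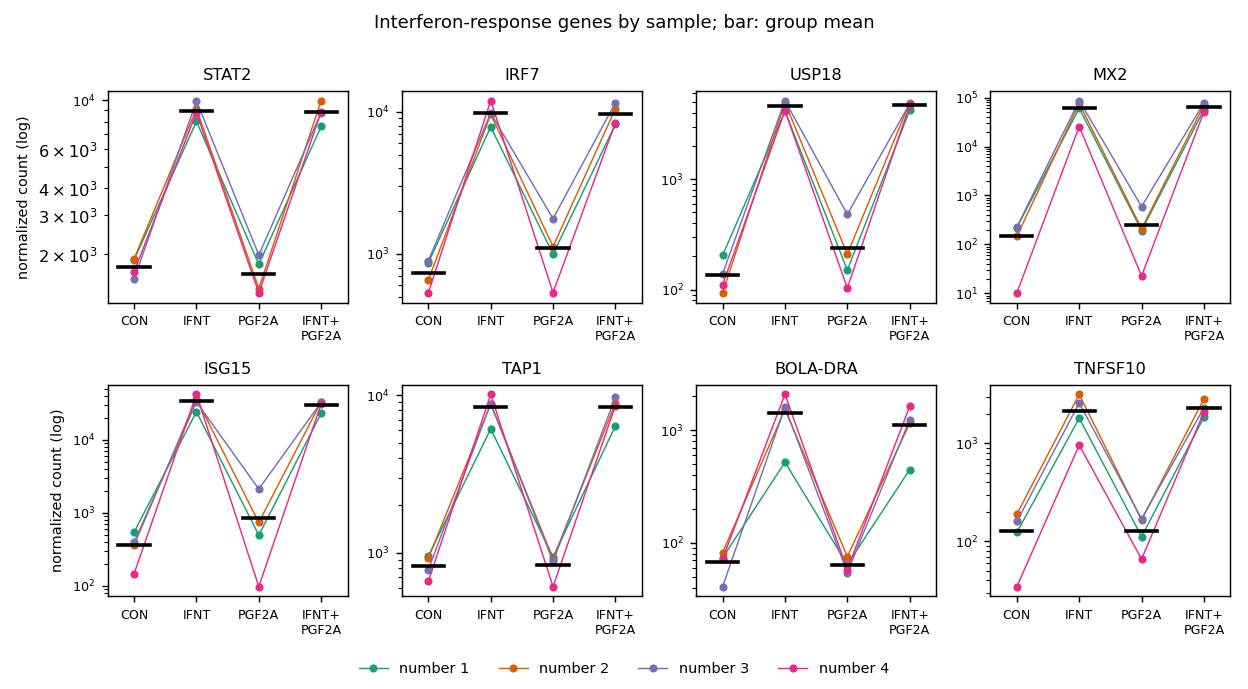
Normalized counts (vertical axes, log scale) of 8 interferon-response genes in the 4 samples of each group; lines join samples with the same number and black bars are group means. In every panel the 4 combined samples lie above the 4 controls, for example 51163 to 78081 against 10.17 to 225.5 for MX2 and 446.3 to 1622 against 40.92 to 82.19 for BOLA-DRA.

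Most antigen presentation genes rose. All 18 tested genes of MHC class I presentation rose (median 1.61). TAP1, which carries peptides into the endoplasmic reticulum, was 954, 925, 782 and 659.8 in control and 6390, 8913, 9711 and 8594 with both agents (log2 change 3.34, 95% interval 2.96 to 3.72, adjusted p = 8.2e-09), with every combined sample above every control. The immunoproteasome subunit PSMB8 rose from 1293 ± 196 to 7014 ± 768 (2.44) and B2M, the class I light chain, from 5087 ± 487 to 21322 ± 2634 (2.06). The class I heavy chains BOLA-NC1 and JSP.1 rose by 1.98 and 1.95; JSP.1 ranged from 2379 to 17171 among controls and its call was lost without the block. Heavy chains are alike in sequence and differ between animals, so their single levels are uncertain. Of 15 class II genes 12 rose and none fell (median 2.16), with 8 and 0 without the block and 9 and 0 without number 3. BOLA-DRA, a class II chain, was 73.8, 82.2, 40.9 and 72.2 in control and 446, 1149, 1241 and 1622 with both agents (log2 change 3.94, 95% interval 3.20 to 4.68, adjusted p = 9.7e-07); number 1 was the lowest combined sample and still above all controls. BOLA-DMB, which helps load peptides, rose by 4.41, the protease CTSS by 3.25 and RFX5, a factor of class II promoters, by 1.33. Markers of cells that normally carry class II were at low levels: macrophage markers summed to 502.8 to 679.4 normalized counts in control and 581.0 to 841.3 with both agents (7 tested, 2 higher and 2 lower; 1 and 0 without the block or without number 3, 2 and 0 without number 2), and B cell markers to 4.67 to 13.22 and 17.58 to 38.45 (2 tested, BLNK higher by 3.58, or 2.90 without number 2). Their part in the class II and cytokine results was not tested. In bulk RNA, more cells of a type and more RNA per cell cannot be told apart.

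Secreted and surface immune signals rose in most cases. Of 17 cytokines 12 rose and none fell (median 0.93), with 8 and 0 without the block and 9 and 0 without number 3. TNFSF10, the death ligand TRAIL, rose from 127 ± 67.2 to 2271 ± 429.9 (4.38), TNFSF13B, a B cell survival factor, from 2.85 ± 2.33 to 141 ± 58.6 (5.78, or 5.15 without number 4), CSF1, the macrophage growth factor, by 1.23 and LIF by 1.72. Of 18 chemokines 12 rose and 1, CXCL14 (-1.08), fell (8 and 0 without the block). CCL2, which attracts monocytes, was 1095, 1841, 2059 and 972 in control and 2504, 5171, 5119 and 2417 with both agents (log2 change 1.33, 95% interval 1.15 to 1.51, adjusted p = 4.5e-08). Numbers 2 and 3 were the highest in both groups, and the groups did not overlap. CCL8 rose from 2.63 ± 1.61 to 99.0 ± 64.3 (4.85, or 4.26 without number 4), CCL5 by 2.35 and CXCL16 by 0.80, while CXCL8, which attracts neutrophils, was -0.15 (interval -0.32 to 0.02, adjusted p = 0.15). Of 11 adhesion and checkpoint genes 9 rose: ICAM1 by 1.19, CD40 by 2.53, the checkpoint ligand CD274 from 129 ± 70.0 to 735 ± 90.5 (2.63) and LGALS9, galectin 9, by 3.44. Of 15 NF-kappaB genes 8 rose and none fell (3 without the block), among them its inhibitor TNFAIP3 (0.98) and the kinase IKBKE (0.70). The share called was 53.3%, against 41.3% over all genes.

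Cell death genes rose in 16 of 33 cases and fell in 3, a median of 0.51, with 57.6% called against 41.3% over all genes. Genes that carry out death and genes that restrain it were both among the rises. FAS, a death receptor, was 380.2, 249, 310.2 and 257 in control and 1038, 1140, 1095 and 898 with both agents (log2 change 1.82, 95% interval 1.57 to 2.06, adjusted p = 3.8e-08), with no overlap of the groups. RIPK3 and MLKL, which carry out necroptosis, rose by 2.43 and 2.55, and the inflammatory caspase CASP4 from 1422 ± 208 to 6731 ± 695 (2.25). Of the inhibitors of apoptosis, BIRC3 rose by 1.38, MCL1 by 0.78, BCL2L1 by 0.72 and CFLAR by 0.68. The 3 that fell were BIK (-0.92, lost without the block), BAD (-0.54) and CASP6 (-0.30). The mitochondrial regulators BAX and BCL2 did not pass, with BAX at 789 ± 73.9 and 765 ± 57.1 (-0.04, interval -0.22 to 0.13) and BCL2 at 0.56 (interval -0.23 to 1.34).

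**Figure D3:**
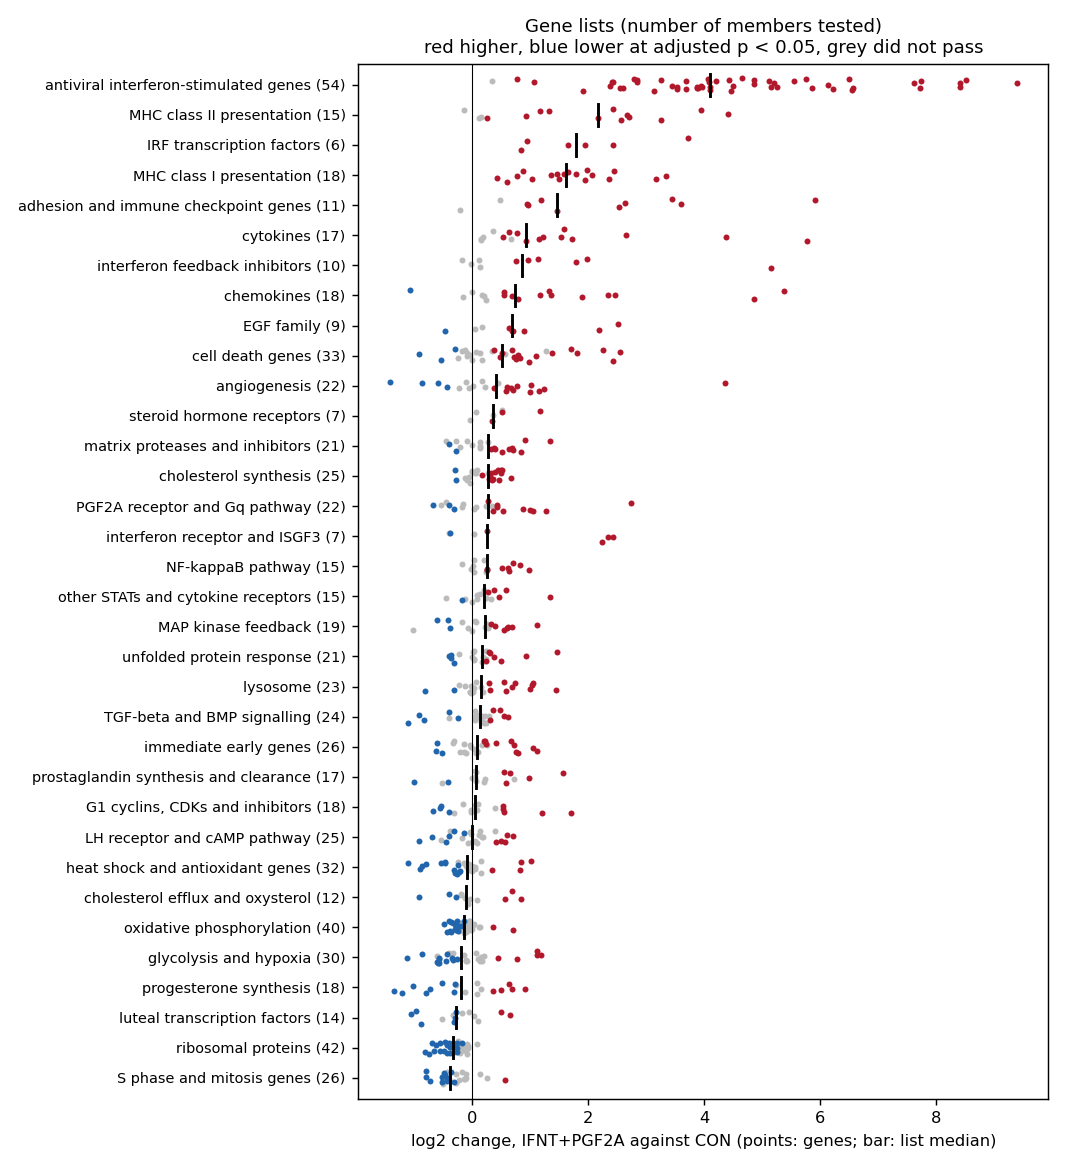
Log2 change against control (horizontal axis) of the tested members of each pathway or function list, cell type markers not included, ordered by list median (black bar), with the number of members tested in brackets; points are genes, red higher, blue lower and grey not past the threshold. The antiviral list has the highest median (4.10), and the lowest medians among the lists drawn are those of S phase and mitosis (-0.38) and ribosomal proteins (-0.33).

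The steps from cholesterol to progesterone were lower, while several genes of cholesterol supply were higher. Of 18 tested genes of progesterone synthesis 8 fell and 5 rose, a median of -0.20 (4 and 4 without the block). CYP11A1, the side-chain cleavage enzyme, was 27880, 43704, 32436 and 29338 in control and 11008, 16861, 13615 and 10717 with both agents (log2 change -1.36, 95% interval -1.57 to -1.14, adjusted p = 1.8e-07). Every combined sample was below every control, and the fall within a number ran from -1.45 to -1.25. STAR was 3167, 6824, 4335 and 1627 in control and 1324, 3058, 2560 and 849 with both agents (log2 change -1.03, 95% interval -1.22 to -0.83, adjusted p = 1e-06). The groups overlapped, with number 2 high and number 4 low in both, and each combined sample was below the control of its number; the call was lost without the block. HSD3B1 went from 16150 ± 4519 to 9656 ± 2435 (log2 change -0.73, 95% interval -0.97 to -0.50, adjusted p = 0.00015). The electron carriers of CYP11A1 fell as well, ferredoxin FDX1 by 0.52 and its reductase FDXR by 0.80 on the log2 scale (FDXR lost without the block). SRD5A1, which reduces progesterone and other steroids, fell from 641 ± 91.4 to 280.5 ± 59.1 (-1.203). Among supply genes SCARB1, the high-density lipoprotein receptor, was 43992, 66285, 42174 and 46164 in control and 57411, 76172, 60306 and 58217 with both agents (log2 change 0.36, 95% interval 0.15 to 0.56, adjusted p = 0.0082; lost without the block). NPC2, which exports cholesterol from lysosomes, rose from 3349 ± 28.4 to 5404 ± 567 (0.68), ACBD3 by 0.64 and STARD3, a cholesterol-binding protein of endosomes, by 0.91. NPC1, the partner of NPC2, fell by 0.31 on the log2 scale and TSPO, an outer mitochondrial membrane protein, by 0.30 (both lost without the block). Fibroblast markers were also lower in 5 of 8 cases and higher in 2 (2 and 0 without the block), for example COL3A1 at -0.74, and their part in these results was not tested.

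**Figure D4:**
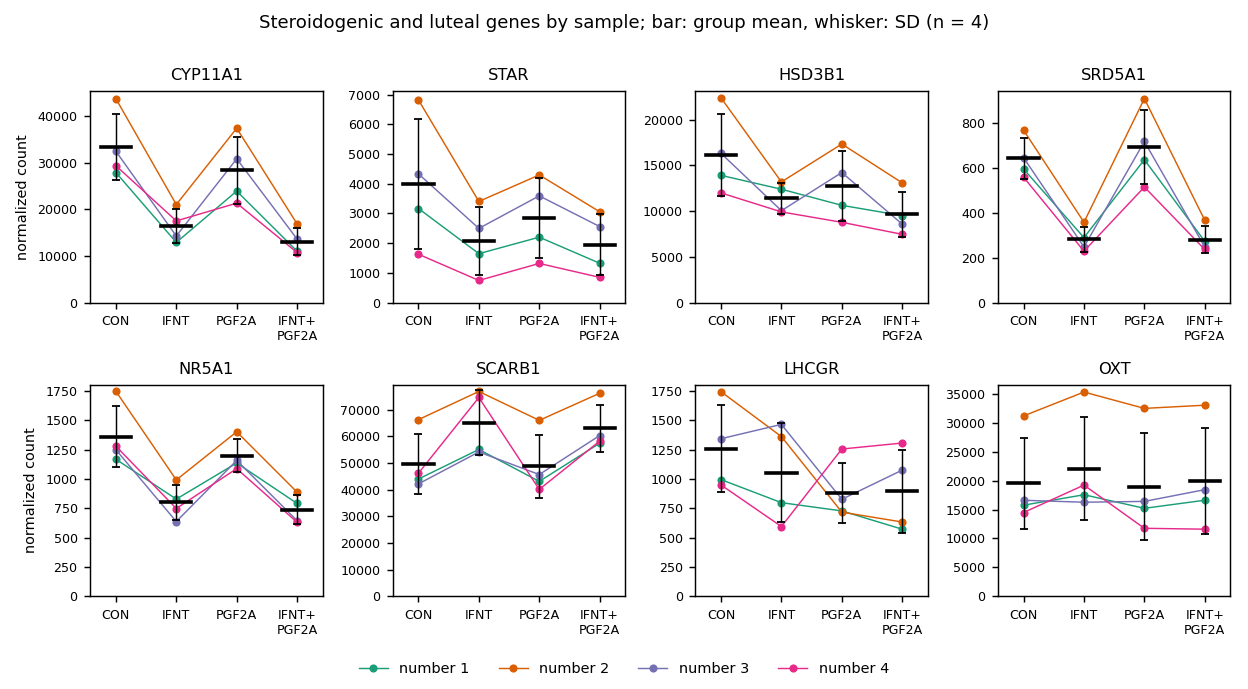
Normalized counts (vertical axes, linear from 0) of 8 steroidogenic and luteal genes in the 4 samples of each group; lines join samples with the same number, black bars are group means and whiskers are the SD (n = 4). CYP11A1, STAR, HSD3B1, SRD5A1 and NR5A1 are lower with both agents than in control within every number, while OXT averages 19499 in control and 19913 with both.

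Luteal transcription factors were lower in 6 of 14 cases and higher in 2 (3 and 1 without the block, 2 and 2 without number 2), 57.1% of the list against 41.3% over all genes. NR5A1, the nuclear receptor that drives steroidogenic genes, was 1168, 1747, 1249 and 1279 in control and 791, 887, 644 and 631 with both agents (log2 change -0.88, 95% interval -1.06 to -0.70, adjusted p = 2.7e-06), with all combined samples below all controls. FOXL2 fell by 0.96 on the log2 scale and NR5A2 was -0.32 (interval -0.60 to -0.04, adjusted p = 0.062), while TCF21 rose by 0.65 and SP1 by 0.49 (SP1 lost without the block). Of the hormones of the large luteal cell, the oxytocin gene OXT was 15747, 31176, 16595 and 14478 in control and 16602, 33028, 18426 and 11597 with both agents. Its log2 change was -0.002 (interval -0.24 to 0.24, adjusted p = 0.99), so a change larger than 0.24 in either direction lay outside the interval. SCG2, another secretory product, was 0.10 (interval -0.04 to 0.24), and PTHLH, the parathyroid hormone-like peptide, rose from 96.3 ± 17.4 to 429 ± 181 (2.03). The Leydig-type peptide INSL3 was 0.15 (interval -0.09 to 0.38). The progesterone receptor PGR was 127, 103, 106 and 106 in control and 264, 251, 289 and 194 with both agents (log2 change 1.16, 95% interval 0.95 to 1.37, adjusted p = 7.3e-07), and of 7 steroid hormone receptors 3 rose, the others being PGRMC1 (0.34) and the glucocorticoid receptor NR3C1 (0.51, lost without the block). That is 42.9% of the receptor list, near the 41.3% over all genes.

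Receptors for both hormones gave wide intervals. LHCGR was 995, 1745, 1344 and 949.5 in control and 572, 633, 1076 and 1307 with both agents (log2 change -0.53, 95% interval -1.18 to 0.12, adjusted p = 0.18). It was lower in numbers 1 to 3 and higher in number 4. Of the small luteal markers LHCGR, CYP17A1 and INSL3, 1 was called higher and 0 lower with all numbers. Without number 4, 2 were called higher and 1, LHCGR, lower. PTGFR was 991, 1730, 1057 and 448 in control and 549.9, 1039, 701 and 456 with both agents (log2 change -0.54, 95% interval -1.18 to 0.11, adjusted p = 0.17), lower in numbers 1 to 3 and at a similar level in number 4. Of 25 genes of the LH receptor and cyclic AMP pathway 5 rose and 6 fell (2 and 3 without the block, 3 and 4 without number 2 or number 3, 5 and 10 without number 4), 44.0% of the list against 41.3% over all genes. The adenylate cyclases ADCY2 and ADCY3 fell by 0.69 and 0.40 on the log2 scale and the phosphodiesterase PDE7A by 0.92, while the anchoring protein AKAP1 rose by 0.71; ADCY2 was lost without the block. Of 22 genes of the PGF2A receptor and Gq pathway 10 rose and 3 fell (3 and 2 without the block, 13 and 6 without number 4), 59.1% of the list. PLCB4, a phospholipase that Gq activates, fell from 556 ± 136 to 344 ± 59.0 (-0.68), and the protein kinase C genes PRKCD and PRKCH rose by 0.36 and 1.04 (PRKCH lost without the block). PTGFRN, a membrane protein that binds the receptor, rose by 0.43. Among 17 prostaglandin genes 5 rose and 2 fell (3 and 1 without the block), 41.2% of the list and so near the share over all genes. The synthase PTGES2 fell from 879 ± 213 to 429 ± 17.3 (-1.004), AKR1B1, which can make PGF2A in bovine tissue, fell by 0.41 on the log2 scale, CBR3 rose by 0.98 and the phospholipase PLA2G4A by 0.55 (AKR1B1 and PLA2G4A lost without the block).

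Cholesterol synthesis was slightly higher within numbers. Of 25 genes 13 rose and 2 fell (median 0.27), but 1 rose and 0 fell without the block, and the list medians of the 4 numbers were 0.18 to 0.26. HMGCS1, which supplies the mevalonate pathway, was 18436, 19812, 14232 and 7751 in control and 25458, 29343, 22660 and 15607 with both agents (log2 change 0.68, 95% interval 0.48 to 0.87, adjusted p = 5.2e-05; lost without the block), higher with both agents in each number while the groups overlapped. DHCR7, which makes the last double-bond reduction, rose by 0.47, squalene synthase FDFT1 by 0.44 and the sterol sensor INSIG1 by 0.50, the latter pair lost without the block. Of 12 cholesterol efflux and oxysterol genes 3 rose and 3 fell (1 and 0 without the block, 3 and 0 without number 2, 2 and 0 without number 3), with MYLIP, a ubiquitin ligase, at 0.69 and the oxysterol receptor NR1H3 at -0.40 (lost without the block).

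Falls outnumbered rises among ribosomal protein, oxidative phosphorylation and glycolysis genes. Of 42 ribosomal protein genes 27 fell and none rose, a median of -0.33 (18 and 0 without the block). RPS4X, a small-subunit protein, was 14745, 14136, 15508 and 16312 in control and 9423, 8428, 8924 and 9448 with both agents (log2 change -0.74, 95% interval -0.86 to -0.63, adjusted p = 1.1e-07), with no overlap of the groups. RPL13 fell by 0.81 and RPL7 by 0.66 on the log2 scale. Of 40 genes of oxidative phosphorylation 16 fell and 2 rose (median -0.14; 9 and 2 without the block or without number 3), 45.0% of the list against 41.3% over all genes, for example the ATP synthase subunits ATP5F1C (-0.40) and ATP5F1A (-0.28), while NDUFB10 of complex I rose from 922 ± 18.9 to 1503 ± 170.1 (0.70). Of 30 glycolysis and hypoxia genes 12 fell and 5 rose (6 and 4 without the block), 56.7% of the list against 41.3% over all genes. PDK1, a pyruvate dehydrogenase kinase, fell from 1811 ± 791 to 791 ± 220 (-1.13) and phosphofructokinase PFKM by 0.86 on the log2 scale. The isoform PFKP rose by 0.77 and the vasodilator peptide ADM from 2673 ± 604 to 6202 ± 2020 (1.18).

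Among S phase and mitosis genes falls outnumbered rises, though 14 of 26 did not pass and the share called (46.2%) was near that over all genes (41.3%). Of the 26 S phase and mitosis genes 11 fell and 1, BUB1B (0.57), rose, a median of -0.38 (2 and 0 without the block, 5 and 1 without number 2, 17 and 2 without number 4). RRM1, which makes the nucleotides for DNA synthesis, was 1474, 1516, 1522 and 1410 in control and 1101, 1120, 993 and 1192 with both agents (log2 change -0.43, 95% interval -0.64 to -0.22, adjusted p = 0.003). TYMS, thymidylate synthase, fell by 0.47, and the mitosis genes MKI67 and CDC20 by 0.74 and 0.80 on the log2 scale, the latter pair lost without the block. Among 18 G1 genes 5 rose and 4 fell (4 and 1 without the block). CDKN2B, an inhibitor of CDK4 and CDK6, rose from 224 ± 40.0 to 743 ± 219 (1.70), as did the cyclins CCND1 (1.203) and CCND3 (0.53). Of 9 genes of the EGF family 6 rose and 1, TGFA (-0.47), fell (3 and 0 without the block). The ligand betacellulin, BTC, rose from 10.5 ± 5.26 to 57.9 ± 16.7 (2.52), HBEGF from 169 ± 33.1 to 275 ± 67.4 (0.68), and NRG1 and AREG by 0.90 and 0.63, the last 2 lost without the block.

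Of 19 MAP kinase feedback genes 7 rose and 3 fell (6 and 1 without the block), 52.6% of the list against 41.3% over all genes. The phosphatase DUSP10 was 150.4, 168, 186 and 179.9 in control and 296, 409, 461 and 333 with both agents (log2 change 1.11, 95% interval 0.90 to 1.32, adjusted p = 9.1e-07), DUSP1 rose by 0.61, SPRY1, an inhibitor of receptor tyrosine kinase signalling, by 0.55 and PHLDA1 by 0.60. Of 26 immediate early genes 10 rose and 3 fell (6 and 1 without the block, 6 and 2 without number 3). ZFP36, which destabilizes cytokine messages, rose from 1340 ± 230.3 to 2875 ± 221 (1.11), the stress factor ATF3 by 1.06, KLF4 by 0.80 and FOSL1 by 0.72. NR4A1, an orphan nuclear receptor, was 1611, 3371, 4228 and 3607 in control and 1633, 2526, 3368 and 2489 with both agents (log2 change -0.32, 95% interval -0.59 to -0.04, adjusted p = 0.067).

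Matrix and vessel genes rose more often than they fell. Of 21 matrix proteases and inhibitors 10 rose and 2 fell (6 and 0 without the block), 57.1% of the list against 41.3% over all genes. The stromelysin MMP3 was 24.9, 37.4, 51.4 and 74.2 in control and 106, 110.3, 95.6 and 138 with both agents (log2 change 1.35, 95% interval 0.95 to 1.75, adjusted p = 6.7e-05), with the lowest combined sample above the highest control. TIMP3, a protease inhibitor, rose by 0.68, ADAMTS1 by 0.64 and the serine protease inhibitor SERPINE2 by 0.70 (lost without the block). Of 22 angiogenesis genes 11 rose and 4 fell (6 and 2 without the block). PTX3, a secreted pattern-recognition protein, was 153, 192, 359.7 and 123 in control and 3479, 3657, 6505 and 2825 with both agents (log2 change 4.36, 95% interval 4.11 to 4.60, adjusted p = 2.6e-11). Endothelin 1, EDN1, rose from 268 ± 82.2 to 617 ± 270 (1.15) and VEGFC, a lymphatic growth factor, by 0.77, while the angiogenesis inhibitor THBS2 fell from 58925 ± 5177 to 32168 ± 916 (-0.87) and VEGFA by 0.43 on the log2 scale (lost without the block). Endothelial markers were higher in 5 of 8 cases and lower in none (2 and 0 without the block), with a summed level of 9154 to 22670 in control and 11690 to 25960 with both agents. They included TEK, the angiopoietin receptor (1.02), and ERG (1.26), and their part in the vessel genes was not tested.

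The largest single changes lay partly outside the lists. KIF5C, a kinesin motor, was 3.83, 19.6, 10.5 and 3.05 in control and 715, 1253, 1101 and 1134 with both agents (log2 change 7.08, 95% interval 6.36 to 7.79, adjusted p = 3.3e-09) and CNDP1, a dipeptidase, was 2.87, 1.87, 4.76 and 0 in control and 110.4, 156, 399.9 and 144 with both agents (log2 change 6.38, 95% interval 5.32 to 7.43, adjusted p = 2.9e-07; log2 change 5.78 without number 4). No control library came near the combined group in either gene. A gene listed by the number 786073 alone, and kept under that number here, had 0 reads in all 4 controls and 7906, 9560, 10039 and 14016 normalized counts with both agents, at least 14357-fold higher when 3 reads are allowed over the control group. XIRP2, a muscle actin-binding protein, had 1 read in all controls together and 63.5, 62.7, 82.0 and 92.3 normalized counts with both agents. BPNT1, a phosphatase of nucleotide metabolism, rose from 787 ± 35.1 to 6860 ± 876 (3.12).

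Among the falls, KCNF1, a potassium channel subunit, was 102, 296, 109 and 238 in control and 5.86, 18.2, 10.4 and 19.3 with both agents (log2 change -3.73, 95% interval -4.51 to -2.96, adjusted p = 2.5e-06). MSTN, myostatin, was 44.1, 66.3, 55.2 and 90.5 in control and 9.77, 6.07, 11.4 and 15.2 with both agents (log2 change -2.56, 95% interval -3.11 to -2.001, adjusted p = 3.8e-06). IGFBP5, an insulin-like growth factor binding protein, was 2331, 6098, 3799 and 4191 in control and 492, 1450, 1211 and 1020 with both agents (log2 change with a 95% interval of -2.29 to -1.71, adjusted p = 7.4e-08). None of these 3 genes overlapped between the groups. The vesicle protein SYT6 fell from 108 ± 37.8 to 20.5 ± 18.9 (-2.67), CYP4A11, a fatty acid hydroxylase, from 56.8 ± 17.8 to 14.0 ± 7.80 (-2.12), the sodium channel SCN10A from 170 ± 39.1 to 37.1 ± 14.4 (-2.22), VASH1, an inhibitor of angiogenesis, from 2315 ± 565 to 689 ± 203 (-1.76) and the laminin chain LAMA1 from 10646 ± 2061 to 5830 ± 1035 (-0.86).

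Whether PGF2A changed levels in the presence of IFNT was read from the combined group against IFNT alone. That test called 99 of 14122 genes (0.701%), 78 higher (0.552%) and 21 lower (0.149%), against 41.3% for the combined group and 43.5% for IFNT alone, both against the same controls. The 99 calls rested on the block and on single numbers: 1 gene passed without the block, 0 without number 1, 0 without number 2, 10 without number 3 and 334 without number 4. The number 4 library of IFNT was the most distant on the second principal component (-70.11). Against PGF2A alone the combined group differed in 5696 genes (40.3%), 2949 higher (20.9%) and 2747 lower (19.5%). The interaction, which asks whether the effect of both departs from the sum of the single effects, passed in 0 genes (0.0%); 219 had an unadjusted p under 0.05 (1.55% of the genes) in limma, 219 in edgeR and 149 in DESeq2. The authors' deposited table of the same interaction also listed 0 genes with an adjusted p under 0.05 and 71 with an unadjusted one. With no interaction in any gene and well-calibrated p-values, a share of about 0.05 would have an unadjusted p under 0.05.

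Genes that were higher with both agents than with IFNT alone included growth, steroid and protease genes. CCND1, which drives entry into the cell cycle, was 461, 399, 503 and 402 in control, 524, 412, 578 and 467 with IFNT, 709, 863, 854 and 802 with PGF2A and 946, 1238, 929.6 and 959 with both agents. Both groups with PGF2A lay above both groups without it in every number, and the log2 difference from IFNT was 1.04 (interval 0.78 to 1.30, adjusted p = 0.0035). CYP17A1, which turns progestogens towards androgens, averaged 106 ± 82.8 in control, 80.9 ± 52.8 with IFNT, 302 ± 258 with PGF2A and 221 ± 129.7 with both agents; it was 1.496 above IFNT (adjusted p = 0.039). HBEGF differed from IFNT by 0.86 (adjusted p = 0.0075), MMP3 by 1.06 (0.024), TIMP3 by 0.38 (0.046) and the tyrosine phosphatase PTPN22 by 1.91 (0.038). Of the 12 genes whose difference from IFNT is given here and in the next paragraphs, 11 lost the call without the block, CCND1 being the exception, and all 12, CCND1 included, lost it without number 1, without number 2 and in a fit of only the groups compared; 9 lost it without number 3.

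Several of the genes that were higher than with IFNT alone were lower with IFNT than in control. Both differences use the same IFNT samples, so they are not independent. A low value in those samples enters both, and a reversal of the IFNT effect by PGF2A was not tested. PTGS2, the inducible cyclooxygenase, was 747, 1070, 2158 and 713 in control, 526, 555, 1283 and 379.6 with IFNT, 802, 1579, 2844 and 1074 with PGF2A and 776, 921, 1998 and 849.6 with both agents. It was 0.77 above IFNT (adjusted p = 0.016) and -0.005 from control (interval -0.28 to 0.27). NPS, a neuropeptide, averaged 83.8 ± 56.0 in control, 19.8 ± 9.67 with IFNT, 196 ± 118 with PGF2A and 63.5 ± 32.2 with both agents. CD24, a surface protein, averaged 109.8 ± 62.0, 52.5 ± 29.5, 296 ± 121 and 202 ± 85.7 in the same order, and BMP2, a bone morphogenetic protein, 1111 ± 142, 398 ± 95.8, 1439 ± 371 and 629 ± 123. The epidermal growth factor ligand EREG differed from IFNT by 1.44 (adjusted p = 0.026).

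Genes that were lower with both agents than with IFNT were fewer. FBXO10, a ubiquitin ligase subunit, was 279.7, 429, 257 and 260.3 in control, 264, 362, 202 and 308 with IFNT, 183, 257, 161 and 208 with PGF2A and 142, 212, 115 and 117 with both agents, -0.97 from IFNT (adjusted p = 0.0033). GSTA2, a glutathione transferase, averaged 497 ± 149.9, 458 ± 172, 311 ± 64.7 and 283 ± 79.0 (-0.66). CRISPLD2, a secreted protein, and P4HA3, a collagen hydroxylase, were higher with IFNT than in control (1.83 and 2.39) and differed from IFNT by -0.69 and -0.60 when PGF2A was present. These differences also share the IFNT samples and are not independent. CLDN11, a tight junction protein, averaged 1320 ± 333 in control, 1696 ± 534 with IFNT, 850.1 ± 212 with PGF2A and 1184 ± 370.4 with both agents. NPS, CD24, BMP2 and CLDN11, given as group means, were not followed singly through the other settings against IFNT. In that comparison no gene passed without number 1 or without number 2, and 1 passed without the block.

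**Figure D5:**
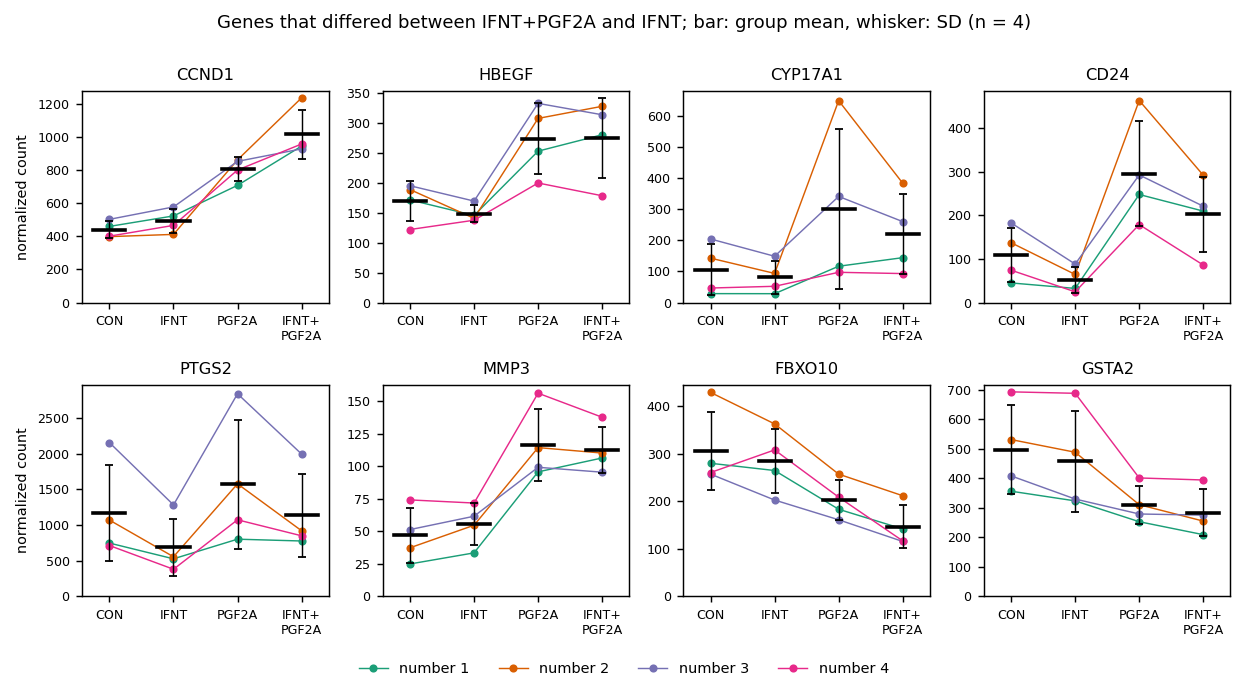
Normalized counts (vertical axes, linear from 0) of 8 genes that differed between the combined group and IFNT alone, in all 4 groups; lines join samples with the same number, black bars are group means and whiskers the SD (n = 4). CCND1 averages 441.1 in control, 495.4 with IFNT, 807.0 with PGF2A and 1018 with both agents, and FBXO10 averages 306.4 in control and 146.2 with both.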

How the data were processed

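RNA of 16 cultures was sequenced as paired reads of 100 bases on a DNBSEQ instrument, per the labels' protocols. Tools listed in the submitters' processing notes, with no role or order, are DESeq2, RSEM 1.2.8, Bowtie2 2.2.5 and HISAT2 2.0.4, and no genome build is given in the sources used here. The authors deposited normalized counts, a signal in which every value was a whole number of reads divided by the sample's size factor (100% of values whole within 0.001 reads). Their deposited interaction table holds p-values and a test score. Whether counting used strand, and how reads shared by near-identical copies were split, is not given in the sources used here.

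Genes that reached 10 normalized counts in 4 or more samples were tested with limma 3.58.1 (R 4.3.3, trend) on log2(normalized count + 0.5), with group and replicate number as terms over all 16 samples and Benjamini-Hochberg adjustment over 14122 genes (threshold 0.05). The number was a block by the definition of the comparison. A check found that same-numbered samples deviated together in all 24 pairs (r 0.352 to 0.719). The main test was run on log values; edgeR 4.0.16 and DESeq2 1.42.0 on the recovered read counts were alternatives, as were another pseudocount, filters, TMM scaling, no trend, no block and samples left out. The procedure was tested on simulated data.

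Genes named were, in each direction, the 15 largest changes with the same sign in 4 of 4 pairs and a mean of at least 50, the 6 smallest adjusted p-values and the 8 largest differences from IFNT, with the 4 smallest p in each list and a fixed set. CYP2C87 and 16 list members that complete a short count or that the text singles out (ACBD3, BAD, BCL2L1, BIK, BIRC3, BUB1B, CASP6, CFLAR, CXCL14, JAK1, MCL1, NPC1, STARD3, TGFA, TSPO and ZC3HAV1) were chosen after their values were seen. A few genes the rule names are not reported here. The comparison's members and the gene lists were chosen with earlier results of these data known. Of the gene IDs 17768 matched the RefSeq names of ARS-UCD2.0, and 25 names that a spreadsheet had turned into dates were restored.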

Additional observations from a re-analysis of the deposited data

Results flagged for a closer look

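In groups of 4, a sample was singled out when its gap to the nearest other sample, as a share of the group's range on the log2 scale, exceeded Dixon's 95% critical value. This held for 23 of 398 groups of control or combined samples of the genes in the text, 11 of them in number 1, and chance alone singles out about 1 in 20 groups. Among controls, number 1 was high for IRF1 (1623 normalized counts), IRF9 (1305), BPNT1 (839), PGR (127) and HERPUD1 (3906) and low for ATP5F1A (12982). Control number 2 was high for FBXO10 (429), and number 3 was low for ICAM1 (1486) and held the 1 read of XIRP2 (0.952 normalized counts). Control number 4 was low for MX2 (10.2), PTPN22 (2.03), MCL1 (6712) and CFLAR (574).

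Among the combined samples, number 1 was low for ISG15 (23098), LGALS9 (6870) and PTGFRN (9278) and high for CSF1 (1323) and IL2RB (55.7). Number 2 was high for CCND1 (1238), ICAM1 (4869), INHBB (754) and SCN10A (58.7), and number 3 was low for LAMA1 (4300). For LAMA1 and SCN10A all combined samples still lay below all controls, and for ISG15, LGALS9, ICAM1 and CCND1 all lay above.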

How the results depend on the processing

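Leaving out the replicate block gave 3127 genes for the combined group against control, 1 against IFNT and 2948 against PGF2A. Against IFNT, a fit of only the groups compared gave 1, DESeq2 204 and limma without trend 59; leaving out a number gave 0 to 334, a control library 58 to 65 and a combined library 5 to 42. Against PGF2A, leaving out a number gave 3784 to 7587, the lowest without number 3. Against control, 3945 (without number 3) to 7607 (without number 4) passed with a number left out. Leaving out a control library gave 4765 to 5203 and a combined library 4934 to 5220, and the remaining settings gave 5276 to 6642. Of 182 called genes in the text, 148 kept the call in every setting that used all samples, 34 lost it without the block, and 14 lost it with some sample left out; BIK also lost it in DESeq2 and in the fit of only the groups compared, and EREG in that fit, without the filter, in edgeR and without trend. Genes near 0 changed sign: OXT (TMM 0.004, edgeR 0.011, DESeq2 0.005, samples left out -0.070 to 0.104), PTGS2 (TMM 0.002, edgeR 0.003, samples left out -0.091 to 0.066), NPS (-0.492 to 0.174) and JAK1 (-0.019 to 0.071). The cause was not tested. TMM scaling moved the median change over all genes from -0.007 to -0.001. With 4 samples a group, the median standard error of a log2 change was 0.11, and 0.16 for the interaction.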

Other observations

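Stress and protein-quality genes moved in both directions. Of 21 tested genes of the unfolded protein response 7 rose and 4 fell with both agents (median log2 change 0.17; 4 and 1 without the replicate block, 4 and 3 without number 3), 52.4% of the list against 41.3% over all genes tested. MANF, a secreted endoplasmic reticulum protein, rose from 1304 ± 77.4 to 3633 ± 774 (SD, n = 4; log2 change 1.46), DDIT3, the stress factor CHOP, from 997 ± 266 to 1849 ± 106 (0.93) and XBP1 by 0.38, while HERPUD1, an endoplasmic reticulum membrane protein of protein degradation, fell by 0.36 on the log2 scale. Of 32 heat shock and antioxidant genes 13 fell and 4 rose (median -0.09; 5 and 3 without the block), 53.1% of the list. GPX4, which reduces lipid peroxides, was 9547, 9643, 9906 and 10790 in control and 5497, 4460, 4313 and 4237 with both agents (log2 change -1.11, 95% interval -1.35 to -0.88, adjusted p = 2.8e-06). NQO1 fell from 907 ± 100.1 to 494 ± 43.9 (-0.87), while SOD2, the mitochondrial superoxide dismutase, rose by 1.02 (lost without the block) and the co-chaperone DNAJA1 by 0.84.

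Lysosomal proteases were among the higher genes. Of 23 lysosome genes 10 rose and 2 fell (median 0.16; 8 and 1 without the block), 52.2% of the list. Cathepsin L, CTSL, was 133, 125, 194 and 136 in control and 314, 313, 504 and 498 with both agents (log2 change 1.45, 95% interval 1.202 to 1.70, adjusted p = 3.8e-07), cathepsin H, CTSH, rose by 1.05 and the acid lipase LIPA by 1.03. Of 24 TGF-beta and BMP genes 5 rose and 5 fell (2 and 2 without the block), 41.7% of the list and so near the share over all genes. ID3, a BMP target, fell from 1424 ± 408 to 676 ± 259 (-1.10), INHBB, an activin subunit, by 0.92 on the log2 scale (lost without the block) and BMP2 from 1111 ± 142 to 629 ± 123 (-0.83), while ID1, another BMP target, rose by 0.62. Pericyte and smooth muscle markers were higher in 3 of 8 cases and lower in none (1 and 0 without the block, 5 and 0 without number 2). That is 37.5% of the list, near the 41.3% over all genes. T and NK cell markers were tested in 2 genes, CD3E (0.78, lost without the block) and IL2RB (1.02), with a summed level of 42.96 to 69.92 normalized counts in control and 65.76 to 121.1 with both agents. None of 6 neutrophil and red cell markers passed (1 without number 3 and 1 without number 4).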
